A study of Mus musculus with 18 samples.

Results

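Nuclear-encoded subunit genes of the 5 oxidative phosphorylation complexes were followed in BMC mouse brown adipocytes. Members were taken by gene name (Nduf, Sdh, Uqcr, Cyc1, Cox4 to Cox8 and Atp5), with pseudogene names and the muscle-type genes Cox6a2, Cox7a1 and Cox8b left out. A member also needed 10 or more counts in 6 or more libraries. Of 82 candidate genes, 77 passed, out of 45706 rows in the table. They comprised 35 genes of complex I, 4 of complex II, 9 of complex III, 12 of complex IV and 17 of complex V.

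BMC is an immortalised line of murine brown preadipocytes, and all libraries came from cells differentiated with a hormone cocktail and used on day 7. The labels put 6 libraries each into cells that were not induced (0 h) and cells sampled 4 h and 24 h after 1 µM norepinephrine. No other agent, allele or strain separates the groups. Replicate numbers 1 to 6 appear in the titles of each group, and 1 batch is given for all 18 libraries. Nothing in the labels ties the libraries to cultures of their own. The p-values thus reflect library-to-library spread alone, and part of it may be technical.

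In mitochondria, complex I takes electrons from NADH and complex II takes them from succinate. Ubiquinone carries them to complex III and cytochrome c carries them on to complex IV, which reduces oxygen. Complexes I, III and IV pump protons, and complex V, the ATP synthase, uses the returning protons to make ATP. Brown adipocytes are rich in mitochondria, and their uncoupling protein UCP1 lets protons return without ATP synthesis, which releases heat. Rodent brown fat is known to hold little ATP synthase beside its respiratory chain. All complexes except complex II combine nuclear-encoded subunits with subunits encoded in mitochondrial DNA.

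Libraries held between 7010742 and 26501223 expected counts. Brown adipocyte markers summed to between 3920 and 4856 CPM (counts scaled to a common library total) in all libraries, and none of the 11 was at 0 in all libraries. Ucp1 itself was low, at 1.08 to 18 CPM. The replicate numbers fell into 3 sets. Libraries with numbers 3 apart (3 and 6, 2 and 5, 1 and 4) resembled each other across all genes at every labelled time, and the sets were formed from that resemblance, known from earlier results of these data. Many genes therefore differ between sets by the way the sets were formed, and the share called over all genes is given with the counts of each comparison. What the numbers stand for is not stated in the labels. Cox6a1, for example, had 508 to 645 CPM in the 6 libraries of set 3+6, 808 to 895 CPM in set 2+5 and 921 to 1021 CPM in set 1+4. One library stood apart: 24 h replicate 5 held 41.5% of its counts in the rows Yam1 and Gm26917, against 6.78 to 10.6% in the others. These rows are taken here as ribosomal RNA, which the labels do not state. The subunit genes of that library took 0.717% of counts.

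The first comparison sets subunit transcripts at the labelled times against each other. None of the 77 genes was called between labelled times by edgeR's quasi-likelihood test with Benjamini-Hochberg adjustment over all genes, at an adjusted p of at most 0.05. Of all 14788 genes tested, 0.0% were called in each comparison of times. DESeq2 and limma-voom also called none of these genes. The brown adipocyte markers Ucp1, Dio2 and Ppargc1a were among them, with log2 fold changes of 0.12, 0.04 and -0.06 in 4 h minus 0 h. The lack of calls is therefore not particular to subunit genes. In these tests no called gene marks a response of the cells to norepinephrine. At an unadjusted p under 0.05, edgeR found 0 subunit genes in any comparison of times, against 173 genes overall (1.17%) at 4 h minus 0 h, 158 (1.07%) at 24 h minus 0 h and 137 (0.926%) at 24 h minus 4 h. The model of times leaves differences between number sets in its spread, which makes small p-values rare. The count of 0 thus does not show that subunit genes were stable.

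Average levels of the 77 genes were the same to within their spread. The 0 h libraries had a mean log2 CPM of 7.06 ± 0.27, the 4 h libraries 7.05 ± 0.29 and the 24 h libraries 7.04 ± 0.24 (SD, n = 6 each). At 4 h, the log2 fold change against 0 h was positive for 39 genes and negative for 38, with a median of 0.00 and a range of -0.12 to 0.10. At 24 h against 0 h, 23 were positive and 54 negative, with a median of -0.02 and a range of -0.25 to 0.07. The gene at the low end was Atp5sl (newer name Dmac2), whose log2 fold change at 24 h was -0.25, with a 95% interval of -0.55 to 0.06. At 4 h against 0 h, the widest single-gene 95% intervals reached down to -0.60 and up to 0.53. That model counts differences between replicate numbers as spread: a subunit gene's median SD of log2 CPM was 0.29 within a labelled time, against 0.11 within the sets of replicate numbers.

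**Figure D1:**
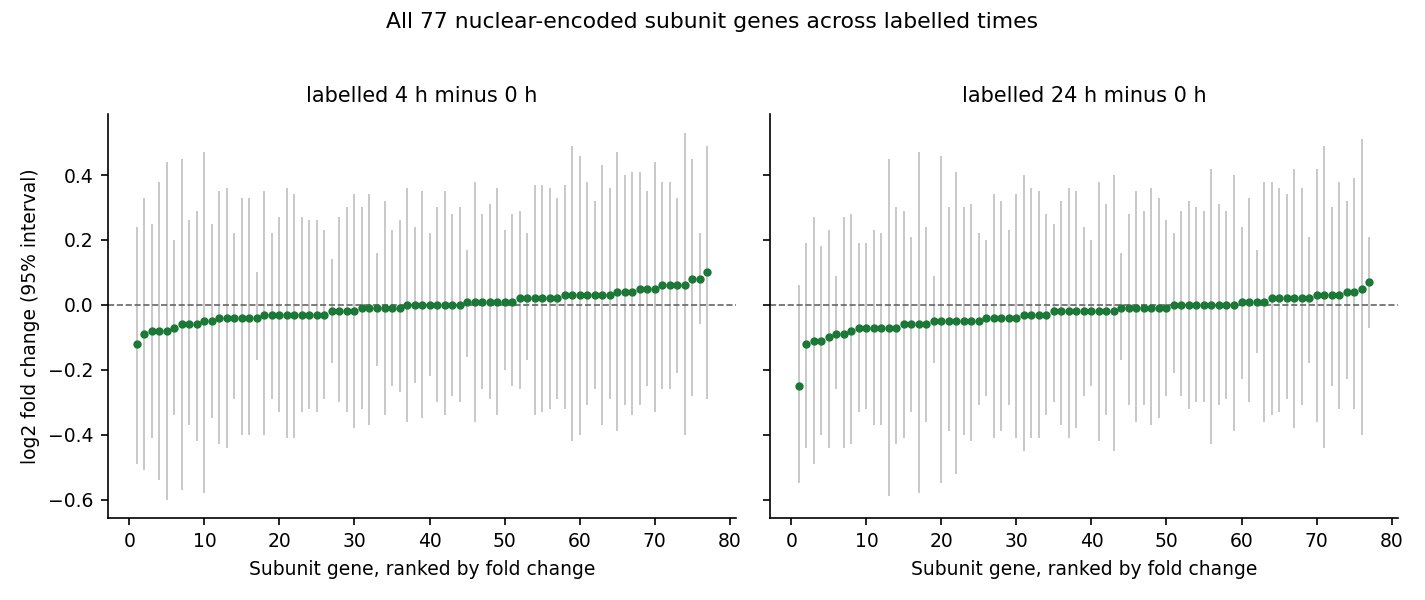
Log2 fold change of each of the 77 subunit genes, ranked along the x axis, for labelled 4 h minus 0 h (left) and 24 h minus 0 h (right). Points are edgeR estimates and bars are 95% intervals; all intervals cross 0.

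Within each set the labelled times were also close. Mean log2 CPM of the 77 genes at 0, 4 and 24 h was 6.72, 6.72 and 6.75 in set 3+6. It was 7.18, 7.13 and 7.11 in set 2+5, and 7.29, 7.31 and 7.25 in set 1+4 (2 libraries each). Adding the replicate number as a block to the model called 0 subunit genes in every comparison of times, and 1 of all genes (0.00676%) at 24 h minus 0 h. An interaction of set and labelled time was called for 0 of the 77 genes and 0 of all 14788. At an unadjusted p under 0.05 it found 4 subunit genes (Ndufb2, Ndufs7, Ndufb4 and Ndufa4) and 415 genes overall (2.81%).

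Most of the variance of subunit genes lay between the number sets. Sets accounted for a median of 86.9% of a subunit gene's variance across the 18 libraries and labelled times for 0.58%, beside 62.7% and 3.78% over all genes tested. Subunit genes were lowest in set 3+6 and highest in set 1+4. Their mean log2 CPM was 6.73 ± 0.13 in set 3+6, with libraries from 6.54 to 6.91. It was 7.14 ± 0.05 in set 2+5, from 7.05 to 7.19, and 7.28 ± 0.06 in set 1+4, from 7.17 to 7.34 (SD, n = 6 each). Set 3+6 did not overlap either of the other sets, while sets 2+5 and 1+4 overlapped.

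**Figure D2:**
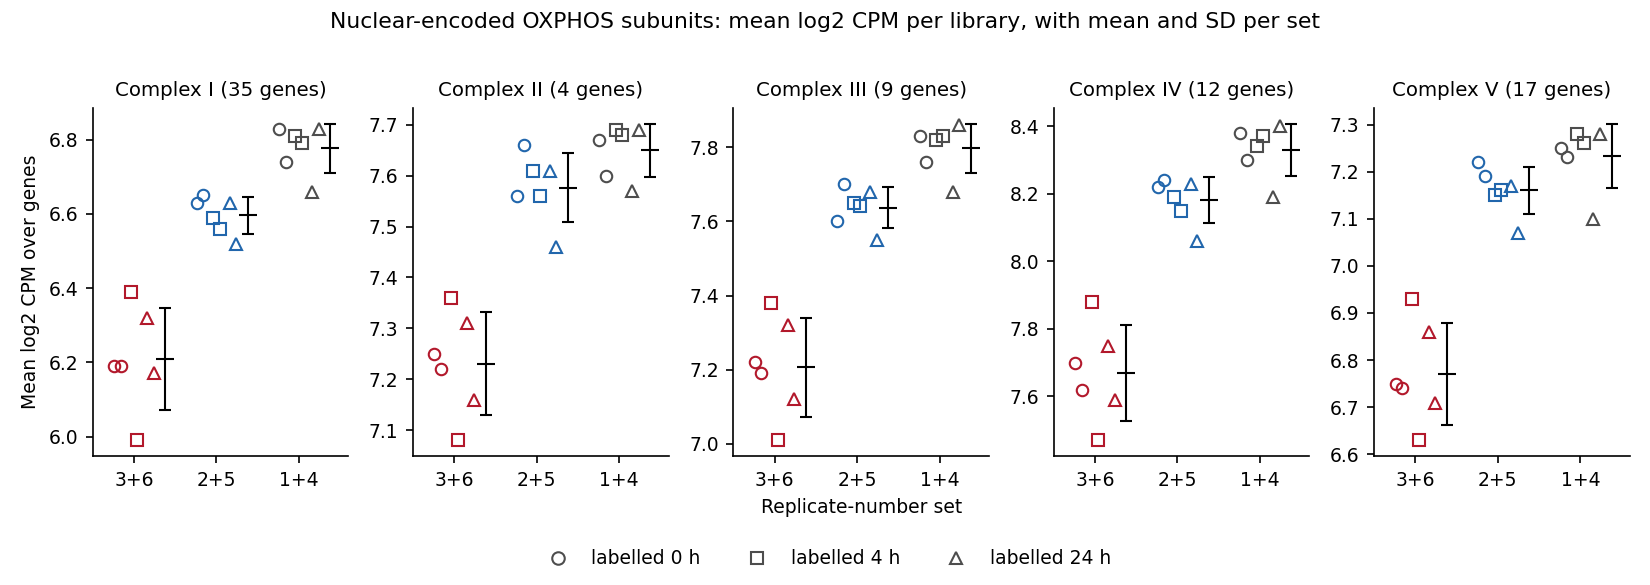
Mean log2 CPM over the subunit genes of each complex in each library, by number set; marker shapes give the labelled time and bars the mean ± SD of 6 libraries. In every complex the 6 libraries of set 3+6 lie below all libraries of sets 2+5 and 1+4; the y axes differ and do not start at 0.

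Between sets 3+6 and 1+4, 73 of the 77 genes were lower in 3+6, none was higher and 4 were not called. Over all genes, 29.5% were called lower and 30.2% higher in that comparison. The median log2 fold change was -0.57, which is 32.4% lower, with a range of -0.99 to -0.04, beside a median of 0.00 over all genes. For 66 genes every library of set 3+6 lay below every library of set 1+4, beside 19.5% of all genes. Between sets 3+6 and 2+5, 70 were lower in 3+6 and none was higher, where 28.5% of all genes were called lower and 28.6% higher. The median was -0.42, which is 25.4% lower, and 53 genes were without overlap, beside 15.5% of all genes. The comparisons share libraries, so their counts are not independent.

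Sets 2+5 and 1+4 were closer. In set 2+5, 43 genes were lower and 4 were higher than in set 1+4, with 30 not called, where 29.9% of all genes were called lower and 29.6% higher. The median was -0.15, which is 9.91% lower. In this comparison 21 genes were lower without overlap, beside 18% of all genes, and 1 was higher without overlap, beside 17.4%. Set means ran in the order 3+6, 2+5, 1+4 from low to high in 63 of the 77 genes (81.8%), against 2535 of all genes (17.1%). That order held for 30 of 35 genes of complex I, 3 of 4 of complex II, 8 of 9 of complex III, 11 of 12 of complex IV and 11 of 17 of complex V.

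**Figure D3:**
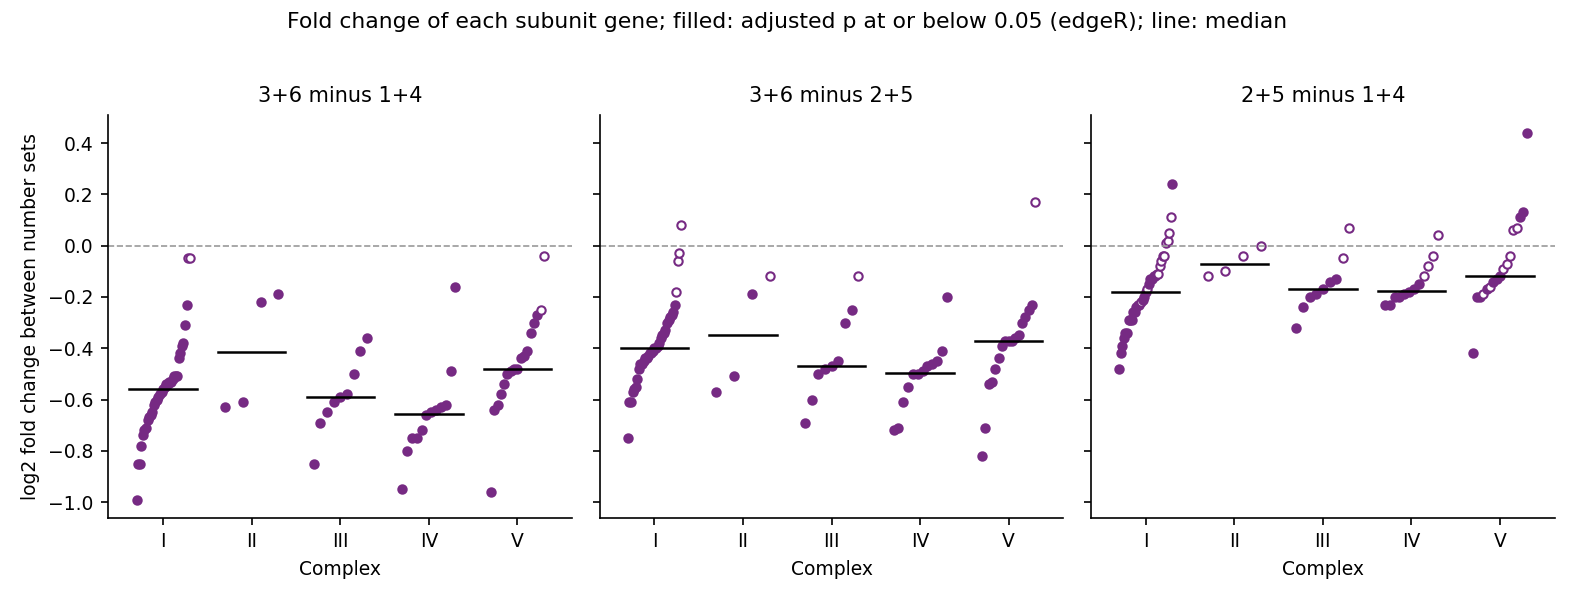
Log2 fold change of each subunit gene between number sets, by complex, for 3+6 minus 1+4, 3+6 minus 2+5 and 2+5 minus 1+4. Filled points have an edgeR adjusted p at or below 0.05 and lines are medians; with 3+6 minus 1+4 all 77 points lie below 0.

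The sizes of these differences depended on how libraries were scaled. With library totals and no further scaling, the median over all genes shifted to 0.17 for 3+6 minus 1+4, 0.25 for 3+6 minus 2+5 and -0.09 for 2+5 minus 1+4, and 75.0%, 85.9% and 35.6% of all calls were then higher, against 50.6%, 50.1% and 49.7% with scaling by trimmed mean of M values. The medians of the 77 genes stayed negative under that scaling, at -0.40, -0.16 and -0.26, but calls fell to 36, 6 and 6 lower, beside 7.65%, 4.9% and 16.5% of all genes. In 2+5 minus 1+4 a smaller share of the 77 genes than of all genes was then called lower. Library totals also count the ribosomal rows, which held 41.5% of the counts of 24 h replicate 5, a library of set 2+5. Its scaling factor by trimmed mean of M values was 0.43, against 0.913 to 1.153 in the other libraries. The part of that library in the calls lost with library totals was not tested. With totals counted without mitochondrially encoded and ribosomal RNA rows, the median over all genes shifted to 0.14, 0.15 and -0.01. The medians of the 77 genes were then -0.43, -0.27 and -0.17, and 68, 59 and 47 were lower, beside 17.6%, 15% and 30.2% of all genes.

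Fewer of all genes were called lower within 1 labelled time than over the 3 times. Tested within the 6 libraries of each labelled time (2 libraries a set), 74, 61 and 65 genes were lower in 3+6 than in 1+4 at 0, 4 and 24 h, beside 23.9%, 16.5% and 15.6% of all genes. For 3+6 against 2+5 these counts were 73, 43 and 48, beside 22.5%, 15.4% and 12.2%. For 2+5 against 1+4 they were 39, 11 and 7, beside 24.2%, 16.1% and 12.7%. When the 3 libraries of a number were summed and each number counted once, 73, 72 and 40 genes were lower in 3+6 minus 1+4, 3+6 minus 2+5 and 2+5 minus 1+4, beside 27.4%, 26.5% and 28.5% of all genes. Without 24 h replicate 5 the lower counts were 73, 71 and 34, beside 30.4%, 29.1% and 29.9%.

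Markers of other cells moved with the sets. All 8 tested preadipocyte and fibroblast markers of 9 listed were higher in set 3+6 than in set 1+4, and their sums were 732 to 930 CPM in 3+6, 664 to 891 in 2+5 and 503 to 547 in 1+4. Smooth muscle markers summed to 58.9 to 81.5 CPM in 3+6, 28.0 to 53.0 in 2+5 and 23.0 to 26.6 in 1+4, with 2 of 3 tested higher in 3+6 than in 1+4. Brown adipocyte markers were split, with 4 higher and 4 lower of 11 in 3+6 against 1+4, where 30.2% of all genes were called higher and 29.5% lower. Their sums were 4073 to 4854 CPM in 3+6, 3920 to 4540 in 2+5 and 4562 to 4856 in 1+4. Their mean log2 CPM was 6.49 ± 0.13 in 3+6 (6.33 to 6.62), 6.59 ± 0.12 in 2+5 (6.35 to 6.68) and 6.92 ± 0.03 in 1+4 (6.89 to 6.96). By that mean they were lower in 3+6 than in 1+4 without overlap, by -0.43 on the log2 scale beside -0.55 for the subunit genes, while their median log2 fold change was -0.01. Macrophage markers summed to at most 4.23 CPM and endothelial markers to at most 1.48 CPM in any library, with Adgre1 and Cdh5 at 0 throughout. Skeletal muscle markers summed to 0.486 to 1.19 CPM in 3+6, 2.13 to 2.99 in 2+5 and 3.37 to 4.20 in 1+4, with Myod1 at 0. Only 1 of the 4 listed, Acta1, had enough counts to be tested. The part of these markers in the subunit differences was not tested. In bulk RNA, fewer cells of a type and less RNA per cell cannot be told apart.

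Complex I, NADH dehydrogenase, is the largest complex, with a core of catalytic subunits and many accessory subunits that surround it. Its mean log2 CPM was 6.21 ± 0.13 in set 3+6, 6.60 ± 0.05 in set 2+5 and 6.78 ± 0.06 in set 1+4. Of its 35 genes, 33 were lower in 3+6 than in 1+4 (median log2 fold change -0.56) and 31 lower in 3+6 than in 2+5 (-0.40). Among the 7 core genes, 6 were lower in each of these comparisons, with medians of -0.56 and -0.52. Among the 28 accessory genes, 27 and 25 were lower, with medians of -0.56 and -0.39. Over all genes, 29.5% were called lower in 3+6 minus 1+4, 28.5% in 3+6 minus 2+5 and 29.9% in 2+5 minus 1+4. The counts of each complex stand beside these shares.

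Ndufb9, an accessory subunit of the membrane arm (chr15:58933756-58939488, plus strand, mm10), had the lowest log2 fold change of all 77 genes in 3+6 minus 1+4. It had 114, 154 and 180 CPM (lowest, median, highest library) in set 3+6, 229, 264 and 270 CPM in set 2+5, and 271, 301 and 319 CPM in set 1+4. The 3 sets did not overlap, although the top of 2+5 nearly met the bottom of 1+4. The log2 fold change of Ndufb9 was -0.99 ± 0.08 (SE) in 3+6 minus 1+4, with an edgeR adjusted p of 4e-08. Ndufs8, a core subunit that carries iron-sulfur clusters (chr19:3908863-3912774, minus strand, mm10), had 32.4, 37.4 and 41.1 CPM in set 3+6, 51.4, 56.3 and 68.6 CPM in set 2+5, and 64.0, 66.9 and 70.2 CPM in set 1+4. Set 3+6 lay below the other sets, which overlapped each other. The log2 fold change of Ndufs8 was -0.85 ± 0.06 in 3+6 minus 1+4 (edgeR adjusted p = 1.8e-12).

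Ndufv1, the core subunit that holds the NADH site, was lower in set 3+6 and not called between the other sets. Ndufv1 had 168, 178 and 201 CPM in 3+6, 263, 277 and 287 CPM in 2+5, and 253, 268 and 280 CPM in 1+4. Ndufv1 gave -0.61 ± 0.04 in 3+6 minus 2+5 and 0.05 ± 0.04 in 2+5 minus 1+4, the second not called (edgeR adjusted p = 0.292). Ndufs1, the largest iron-sulfur core subunit, was highest in the middle set. It had 121, 134 and 145 CPM in 3+6, 161, 199 and 209 CPM in 2+5, and 158, 166 and 170 CPM in 1+4, so that only 3+6 was free of overlap. Its log2 fold change was -0.31 ± 0.04 in 3+6 minus 1+4 and 0.24 ± 0.04 in 2+5 minus 1+4 (edgeR adjusted p = 3.5e-05), a call that was lost with library totals (adjusted p = 0.61).

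The accessory genes Ndufa9 and Ndufb8, often used as markers of assembled complex I, were lower in 3+6 by log2 fold changes of -0.55 and -0.68 against 1+4. Ndufa9 had 74.9 to 91.8 CPM in 3+6, 107 to 115 in 2+5 and 116 to 129 in 1+4. Ndufb8 had 113 to 151 CPM in 3+6, 190 to 208 in 2+5 and 199 to 229 in 1+4. A few accessory genes separated set 2+5 from set 1+4 more than set 3+6 from set 2+5. Ndufc2, a subunit of the membrane arm, had 71.7, 83 and 104 CPM in 3+6, 91.5, 97.4 and 110 CPM in 2+5, and 132, 138 and 142 CPM in 1+4. Sets 3+6 and 2+5 overlapped for Ndufc2 and set 1+4 lay above both. Ndufc2 had a log2 fold change of -0.48 ± 0.06 in 2+5 minus 1+4 and -0.23 ± 0.06 in 3+6 minus 2+5, and the second turned to 0.03 with library totals. Ndufb3, Ndufa5 and Ndufa13, the last also known as Grim19, followed with -0.42, -0.39 and -0.36 in 2+5 minus 1+4.

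Core subunit Ndufs7, next to the ubiquinone site, was an exception. It had 93.7, 104 and 119 CPM in 3+6, 93.5, 98.3 and 108 CPM in 2+5, and 101, 110 and 114 CPM in 1+4. All 3 sets overlapped. In 3+6 minus 1+4 the log2 fold change of Ndufs7 was -0.05 ± 0.05 (edgeR adjusted p = 0.356; 95% interval -0.15 to 0.05). It was higher in 3+6 than in 2+5 within 24 h, with a log2 fold change of 0.27, and with totals without mitochondrial and ribosomal rows, with 0.23. Within 24 h each set had 2 libraries, and those of set 2+5 included replicate 5, the library rich in ribosomal RNA. Ndufa7, an accessory subunit, likewise had overlapping sets, at 64.3 to 82.4 CPM in 3+6, 67.0 to 84.0 in 2+5 and 73.0 to 82.4 in 1+4. Its log2 fold change was -0.05 ± 0.05 in 3+6 minus 1+4, with a 95% interval of -0.16 to 0.05.

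Complex II, succinate dehydrogenase, also belongs to the citric acid cycle and has no subunit from mitochondrial DNA. Its mean log2 CPM was 7.23 ± 0.10 in set 3+6, 7.58 ± 0.07 in set 2+5 and 7.65 ± 0.05 in set 1+4. All 4 genes were lower in 3+6 than in 1+4, 3 were lower in 3+6 than in 2+5, and none was called between 2+5 and 1+4. The catalytic subunits differed more than the membrane anchors. Sdha, the flavoprotein that oxidises succinate, had 400, 430 and 479 CPM in 3+6, 583, 647 and 687 CPM in 2+5, and 638, 666 and 678 CPM in 1+4. Set 3+6 lay below the others, which overlapped, with a log2 fold change of -0.61 ± 0.04 against 1+4 (edgeR adjusted p = 1.4e-12). Sdhb, the iron-sulfur subunit, gave -0.63 ± 0.06, with 99.3 to 120 CPM in 3+6, 144 to 167 in 2+5 and 146 to 184 in 1+4.

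The anchors Sdhc and Sdhd, which bind haem and ubiquinone, overlapped between sets. Sdhc had 76.8, 87.5 and 93.9 CPM in 3+6, 92.1, 97.6 and 105 CPM in 2+5, and 91.8, 98.2 and 104 CPM in 1+4. Its log2 fold change was -0.19 ± 0.05 in 3+6 minus 1+4 (edgeR adjusted p = 0.00078), and the call was lost with library totals at -0.03 (adjusted p = 0.91). Sdhd had 110, 124 and 134 CPM in 3+6, 107, 138 and 143 CPM in 2+5, and 132, 148 and 152 CPM in 1+4. Its log2 fold change of -0.22 ± 0.05 in 3+6 minus 1+4 was likewise lost with library totals, at -0.06.

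Complex III passes electrons from ubiquinol to cytochrome c. Its mean log2 CPM was 7.21 ± 0.13 in set 3+6, 7.64 ± 0.06 in set 2+5 and 7.80 ± 0.06 in set 1+4. All 9 genes were lower in 3+6 than in 1+4 (median -0.59), 8 were lower in 3+6 than in 2+5 (-0.47) and 7 lower in 2+5 than in 1+4 (-0.17). Uqcrq, a small subunit that contacts cytochrome b (chr11:53427922-53430831, minus strand, mm10), had the lowest log2 fold change of the complex. It had 154, 173 and 206 CPM in 3+6, 238, 300 and 309 CPM in 2+5, and 292, 326 and 343 CPM in 1+4. Set 3+6 lay below both other sets, which overlapped, and the log2 fold change was -0.85 ± 0.07 in 3+6 minus 1+4 (edgeR adjusted p = 6.1e-09).

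The catalytic subunits were lower as well. Cyc1, cytochrome c1, had 151 to 194 CPM in 3+6, 229 to 271 in 2+5 and 253 to 284 in 1+4, with a log2 fold change of -0.61 in 3+6 minus 1+4. Uqcrfs1, the Rieske iron-sulfur protein, had 96.9, 116 and 124 CPM in 3+6, 155, 159 and 165 CPM in 2+5, and 144, 152 and 159 CPM in 1+4. Its highest median was in set 2+5, but the log2 fold change of 0.07 in 2+5 minus 1+4 was not called (edgeR adjusted p = 0.199). The core proteins Uqcrc1 and Uqcrc2, which resemble processing peptidases, gave -0.59 and -0.69 in 3+6 minus 1+4. Uqcr11, another small subunit, was the one gene of the complex whose 3+6 and 1+4 libraries overlapped, with 116 to 183 CPM in 3+6 and 176 to 214 CPM in 1+4.

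Complex IV, cytochrome c oxidase, had the largest median difference of the 5 complexes in 3+6 minus 1+4. Its mean log2 CPM was 7.67 ± 0.14 in set 3+6, 8.18 ± 0.07 in set 2+5 and 8.33 ± 0.08 in set 1+4. All 12 genes were lower in 3+6 than in 1+4 (median -0.65) and than in 2+5 (-0.49), and 8 were lower in 2+5 than in 1+4 (-0.18). Cox5b, which holds a zinc ion (chr1:36691449-36693681, plus strand, mm10), had 192, 256 and 300 CPM in 3+6, 383, 430 and 433 CPM in 2+5, and 430, 491 and 531 CPM in 1+4. Set 3+6 was free of overlap, while 2+5 and 1+4 overlapped at their edges. The log2 fold change was -0.95 ± 0.08 in 3+6 minus 1+4 (edgeR adjusted p = 2e-08) and -0.23 ± 0.08 in 2+5 minus 1+4 (0.021).

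Cox6a1, the form of subunit VIa of non-muscle tissues, had 508, 552 and 645 CPM in 3+6, 808, 869 and 895 CPM in 2+5, and 921, 1000 and 1021 CPM in 1+4. The 3 sets were free of overlap, with a log2 fold change of -0.80 ± 0.05 in 3+6 minus 1+4 (edgeR adjusted p = 1e-13). Cox4i1, at the site of allosteric control by ATP, had 575 to 750 CPM in 3+6, 815 to 931 in 2+5 and 866 to 1052 in 1+4, with a log2 fold change of -0.63. Cox5a gave -0.64. Cox8a, the smallest subunit, gave -0.75 in 3+6 minus 1+4 and -0.71 in 3+6 minus 2+5 but -0.04 in 2+5 minus 1+4. Ndufa4, first described as a complex I subunit and later assigned to complex IV, is counted here. It had 72.2 to 96.6 CPM in 3+6, 116 to 130 in 2+5 and 128 to 158 in 1+4, with a log2 fold change of -0.75 in 3+6 minus 1+4.

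Cox7a2l, also called Scaf1, links complexes III and IV in supercomplexes and is related to subunit VIIa. It was the exception of complex IV, with 58.1, 64.0 and 71.7 CPM in 3+6, 68.3, 73.6 and 78.0 CPM in 2+5, and 64.8, 72.6 and 77.6 CPM in 1+4. The sets overlapped. Cox7a2l had a log2 fold change of -0.16 ± 0.05 in 3+6 minus 1+4 (edgeR adjusted p = 0.0087) and turned to 0.01 with library totals (adjusted p = 0.98).

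Complex V consists of the catalytic F1 head, a membrane part with a ring of c subunits, and a stalk that joins them. Its mean log2 CPM was 6.77 ± 0.11 in set 3+6, 7.16 ± 0.05 in set 2+5 and 7.23 ± 0.07 in set 1+4. Of its 17 genes, 15 were lower in 3+6 than in 1+4 (median -0.48), 16 lower in 3+6 than in 2+5 (-0.37), and 7 lower and 3 higher in 2+5 than in 1+4 (-0.12). All 5 genes of the F1 head, 3 of the c ring, 4 of the stalk and 3 of the other membrane subunits were lower in 3+6 than in each of the other sets. In 2+5 minus 1+4 the F1 genes were split, with 2 lower and 2 higher, where 29.9% of all genes were called lower and 29.6% higher.

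The catalytic subunit beta and its partner alpha were highest in set 2+5. Atp5b (beta) had 1389, 1557 and 1735 CPM in 3+6, 2397, 2544 and 2726 CPM in 2+5, and 2210, 2352 and 2402 CPM in 1+4. Set 3+6 lay far below, while 2+5 and 1+4 met. The log2 fold change of Atp5b was -0.71 ± 0.05 in 3+6 minus 2+5 (edgeR adjusted p = 1.1e-12) and 0.13 ± 0.05 in 2+5 minus 1+4 (0.022). Atp5a1 (alpha) had 732, 791 and 895 CPM in 3+6, 1129, 1156 and 1238 CPM in 2+5, and 1019, 1084 and 1129 CPM in 1+4. It was the gene higher in 2+5 than in 1+4 without overlap, by a log2 fold change of 0.11 (edgeR adjusted p = 0.044). With library totals the 2+5 minus 1+4 calls of both genes were lost, at 0.03 for Atp5b and 0.00 for Atp5a1. Atp5c1, the gamma subunit that turns inside the head, was lower in 2+5 than in 1+4 by -0.13 and in 3+6 by -0.50.

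Subunit c is encoded by 3 genes, Atp5g1, Atp5g2 and Atp5g3, whose mature proteins are identical. In rodent brown fat, the level of the Atp5g1 form is known to limit how much ATP synthase is made. Atp5g3 (chr2:73908447-73911326, minus strand, mm10) had 64.2, 77.5 and 84.7 CPM in 3+6, 121, 134 and 142 CPM in 2+5, and 140, 148 and 155 CPM in 1+4. Set 3+6 lay below both others, which overlapped slightly, and the log2 fold change was -0.96 ± 0.06 in 3+6 minus 1+4 (edgeR adjusted p = 2e-12). Atp5g1 had 64.8, 72.2 and 81.9 CPM in 3+6, 79.2, 86.8 and 88.8 CPM in 2+5, and 81.8, 89.9 and 92.6 CPM in 1+4. Its sets overlapped, with -0.27 ± 0.05 in 3+6 minus 1+4 (edgeR adjusted p = 2.6e-05). Atp5g2 had 85.1, 99.9 and 119 CPM in 3+6, 110, 119 and 130 CPM in 2+5, and 119, 137 and 144 CPM in 1+4, with a log2 fold change of -0.41 ± 0.07 in 3+6 minus 1+4 and overlap between those sets.

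The balance among the 3 genes is given as a description with no test, since the ratios were chosen after their values were seen. The log2 ratio of Atp5g3 to Atp5g1 averaged 0.05 ± 0.23 in set 3+6 (-0.29 to 0.31), 0.65 ± 0.11 in set 2+5 (0.49 to 0.76) and 0.74 ± 0.07 in set 1+4 (0.66 to 0.82; SD, n = 6 each). The ratio of Atp5g3 to Atp5g2 averaged -0.43 ± 0.16 in set 3+6 (-0.57 to -0.24), 0.15 ± 0.13 in set 2+5 (0.00 to 0.34) and 0.12 ± 0.09 in set 1+4 (-0.01 to 0.26). For both ratios the libraries of set 3+6 lay below those of the other sets, which overlapped. Atp5g1 and Atp5g2 carry non-whole estimated counts in most libraries, as happens where reads are shared with near-identical sequences, so their own values are uncertain.

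**Figure D4:**
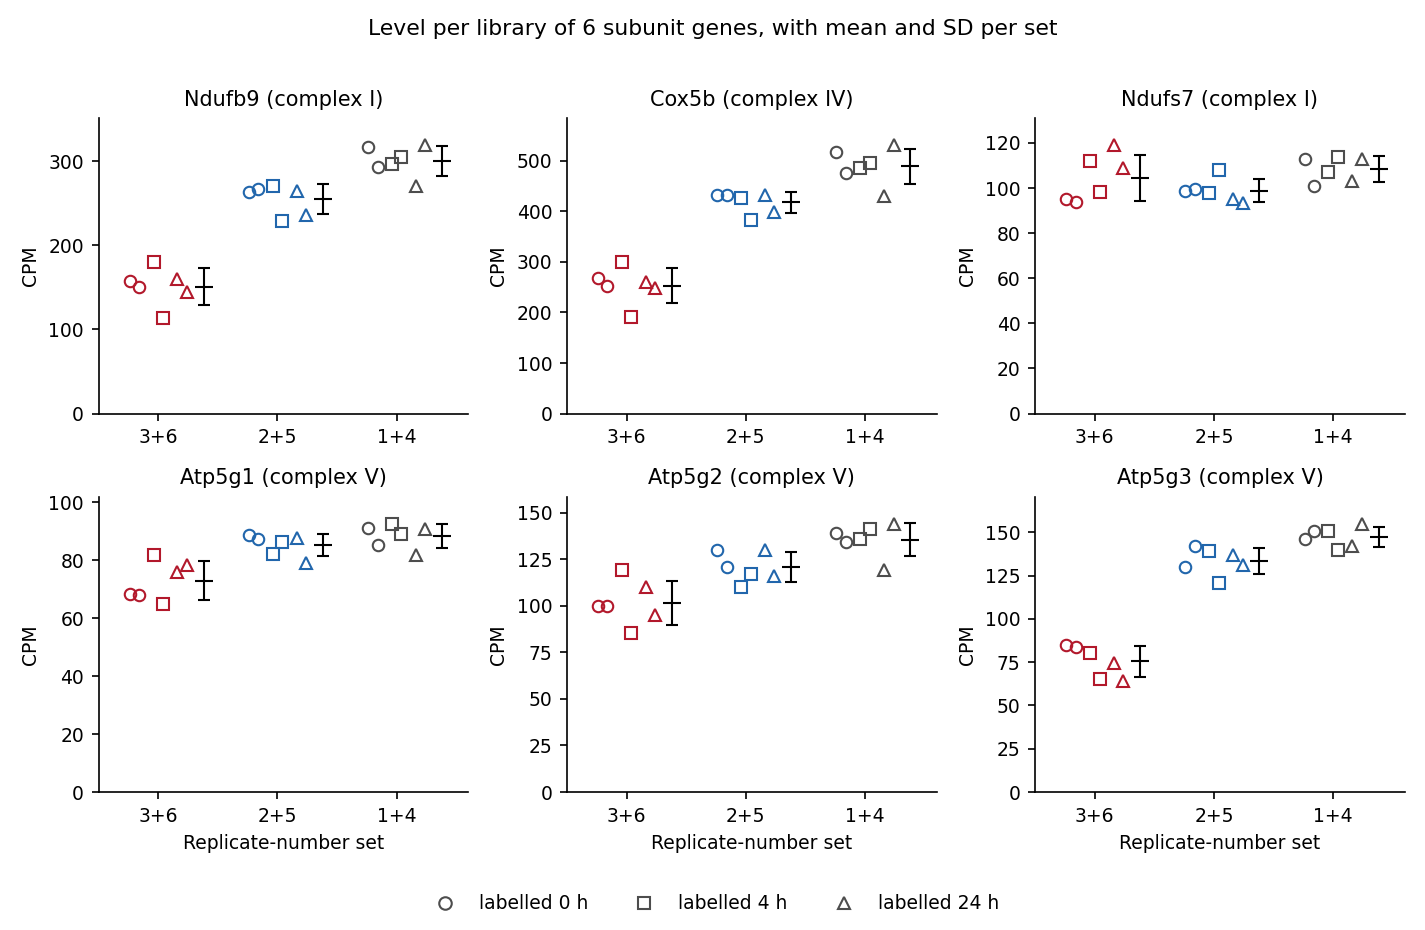
CPM per library of Ndufb9, Cox5b, Ndufs7, Atp5g1, Atp5g2 and Atp5g3 by number set, with mean ± SD of 6 libraries; marker shapes give the labelled time. Atp5g3 lies at 64.2 to 84.7 CPM in set 3+6 and at 140 to 155 in set 1+4, while Ndufs7 overlaps in all 3 sets.

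The genes not called between 3+6 and 1+4 were Ndufs7, Ndufa7, Atp5s and Atp5sl. The last pair carry the Atp5 name but are not subunits of the enzyme. Atp5s, coupling factor B (newer name Dmac2l), had the lowest counts of the 77 genes, with a median of 58.5, and reached 10 counts in 17 libraries, while the limit asked for 6. It had 1.95, 2.53 and 3.09 CPM in 3+6, 1.96, 2.09 and 2.99 CPM in 2+5, and 2.52, 2.94 and 3.84 CPM in 1+4, all overlapping. Atp5s had a log2 fold change of -0.25 ± 0.13 in 3+6 minus 1+4, with a 95% interval of -0.53 to 0.03. Atp5sl, a factor for complex I assembly, had 6.96, 7.53 and 8.91 CPM in 3+6, 8.62, 10.9 and 11.8 CPM in 2+5, and 7.25, 7.49 and 9.58 CPM in 1+4. It was higher in 2+5 than in 1+4 by a log2 fold change of 0.44 ± 0.07 (edgeR adjusted p = 8.4e-06), though the sets overlapped, and with library totals this call was lost (adjusted p = 0.077).

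Below the limit of 10 counts were 5 genes of complex IV. Ndufa4l2, a hypoxia-induced relative of Ndufa4, was just outside it, with 10 or more counts in 5 libraries and a maximum of 16. Cox6b2, a testis form, reached 9 counts, Cox4i2, a lung form induced by low oxygen, reached 4, and Cox7b2 and Cox8c had 0 in all libraries. For the last 4, differences between groups could not be read. Ndufa4l2 had 0.0442 to 0.343 CPM in 3+6, 0.00 to 0.706 in 2+5 and 0.333 to 0.72 in 1+4, with overlap between all sets. It was called lower in 3+6, by log2 fold changes of -1.52 ± 0.36 against 1+4 (edgeR adjusted p = 0.00077) and -1.21 ± 0.40 against 2+5 (0.011), but the first call was lost within 4 h and the second within each labelled time and without replicate 2. The muscle-type genes left out of the members differed more in 3+6 minus 1+4 than any member. Cox6a2 averaged 3.14 ± 0.498 CPM in 3+6, 14.2 ± 1.69 in 2+5 and 18.9 ± 1.55 in 1+4, with a log2 fold change of -2.55 ± 0.08 in 3+6 minus 1+4. Cox7a1 averaged 11.1 ± 2.47, 22.7 ± 4.77 and 24.7 ± 2.77 CPM in 3+6, 2+5 and 1+4 (-1.12), whereas Cox8b was highest in 3+6, at 4.78 ± 0.985 CPM, against 2.78 ± 0.54 in 2+5 and 1.90 ± 0.293 in 1+4 (1.33).

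Levels of different genes were compared per length, as CPM per kilobase of exon (RPKM), averaged over the 18 libraries. In complex IV, Cox6a1, Cox8a and Cox4i1 led, at 1144, 1113 and 548 RPKM, and Cox7a2l was lowest at 47.3. In complex V, Atp5b led at 507 RPKM and Atp5s was lowest at 1.28. Sdha at 141 and Sdhc at 28.9 RPKM bounded complex II. Ndufb9 at 228 and Ndufb2 at 11.3 RPKM bounded complex I, and Uqcr10 at 298 and Uqcrc2 at 57.1 RPKM bounded complex III. With the length of the coding transcript in place of all exons joined, Ndufa6 (385 RPKM) stood above Ndufb9 (334) and Uqcrq (522) above Uqcr10 (401), while the other 8 ends of these ranges kept their genes. Subunit genes are short: their median joined exon length was 1756 bases, against 4066 over all genes. Across the 77 genes, the Spearman correlation of length with log2 fold change was 0.23 in 3+6 minus 1+4, -0.10 in 3+6 minus 2+5 and 0.39 in 2+5 minus 1+4, beside 0.02, 0.00 and 0.02 over all genes. All points of such a correlation share the same libraries.

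The genes lie on 19 chromosomes, and their promoters were searched for motifs that are known from work on respiratory genes. Factors studied there are NRF1, the ETS-family factor GABPA (also called NRF2), YY1, SP1 and the oestrogen-related receptors. RefSeq promoter windows (GRCm38.p6, 250 bases before and 50 after the start) were found for 65 of the 77 genes, in 71 windows. Those without a window include Atp5a1, Cox4i1, Cox6c, Cyc1, Ndufa2, Ndufb9, Ndufs1, Sdhc, Uqcrb, Uqcrc2 and Uqcrq. For each motif, 3 called genes are shown with 30 bases around it, to set the letters beside the fold changes. They have the lowest fold changes among genes whose match lies far enough from the window's ends, which leaves out Ndufs4, Ndufb8 and Cox7b for YY1. Sequences are read 5′ to 3′ on the gene's strand, with the motif in capitals.
Atp5g3 (NRF1, reverse; chr2:73911295-73911324, minus): gagccgcaccGCGCTTGCGCgcccagcccc
Cox6a1 (NRF1; chr5:115349101-115349130, minus): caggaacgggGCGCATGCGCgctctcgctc
Ndufa5 (NRF1; chr6:24527697-24527726, minus): tgtgtgagctGCGCAGGCGCaaatctacct
Ndufb6 (ETS, reverse; chr4:40279635-40279664, minus): tcgtccttgttCTTCCGGtcccctccccta
Ndufs8 (ETS, reverse; chr19:3912741-3912770, minus): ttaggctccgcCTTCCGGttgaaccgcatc
Cox6a1 (ETS, reverse; chr5:115348956-115348985, minus): ccccatttccgCTTCCGGcgcgccggtgta
Ndufs8 (YY1; chr19:3912921-3912950, minus): ctctctgatacAACATGGCagctccctaca
Atp5j2 (YY1; chr5:145191500-145191529, minus): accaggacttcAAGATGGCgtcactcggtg
Ndufa3 (YY1; chr7:3617384-3617413, plus): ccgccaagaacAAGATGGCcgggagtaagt

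On both strands, the NRF1 motif (GCGCA, any base, then GCGC) was in 18 of the 71 windows (25.4%), against 4.6% of all 32851 windows. The ETS motif CCGGAAG was in 16 (22.5%), against 8.86%, and the YY1 motif AANATGGC in 19 (26.8%), against 6.05%. The SP1 motif GGGCGG was in 27 (38.0%), against 35.7%, and the receptor motif TNAAGGTCA in 3 (4.23%), against 1.28%. Median GC content was 58.3% in the subunit windows, against 52.7%. By complex, the YY1 motif was in 12 of 33 windows of complex I, 6 of 20 of complex V, 1 of 10 of complex IV and none of the 3 windows of complex II or the 5 of complex III.

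Genes with and without a motif had close medians. The median log2 fold change in 3+6 minus 1+4 was -0.54 for 17 genes with the NRF1 motif and -0.58 for 48 without it. It was -0.52 for 16 genes with the ETS motif and -0.58 for 49 without, and -0.55 for 18 with the YY1 motif and -0.58 for 47 without. Genes that were not called also held the YY1 motif. The matches of 3 of them are shown to set beside those above, again with the motif in capitals.
Ndufa7 (chr17:33824616-33824645, plus): ggagcggaaggAATATGGCgtccgctactc
Ndufs7 (chr10:80249462-80249491, plus): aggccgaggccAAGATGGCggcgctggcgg
Atp5sl (chr7:25619429-25619458, plus): cgttacctggcAAGATGGCggcgcccagag

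A match describes letters in a window and not a bound site.

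Transcripts of the 13 subunits encoded in mitochondrial DNA differed in another way. Their mean log2 CPM was 11.76 ± 0.16 in set 3+6, 11.68 ± 0.12 in set 2+5 and 11.90 ± 0.13 in set 1+4, with overlap between all sets. In 3+6 against 1+4, 6 of 13 were lower and none higher (29.5% and 30.2% of all genes), with a median of -0.13 that turned to 0.03 with library totals. In 3+6 against 2+5, none was lower and 2 were higher (28.5% and 28.6% of all genes), with a median of 0.05. In 2+5 against 1+4, 11 were lower (29.9% of all genes) and the median was -0.21. The example mt-Co1, the catalytic subunit of complex IV chosen after its values were seen, had 22245 to 25642 CPM in 3+6, 17331 to 20290 in 2+5 and 20834 to 24886 in 1+4, with a log2 fold change of 0.30 ± 0.06 in 3+6 minus 2+5 (edgeR adjusted p = 8e-05). In the same comparison the nuclear-encoded subunits of complex IV had a median of -0.49.

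**Figure D5:**
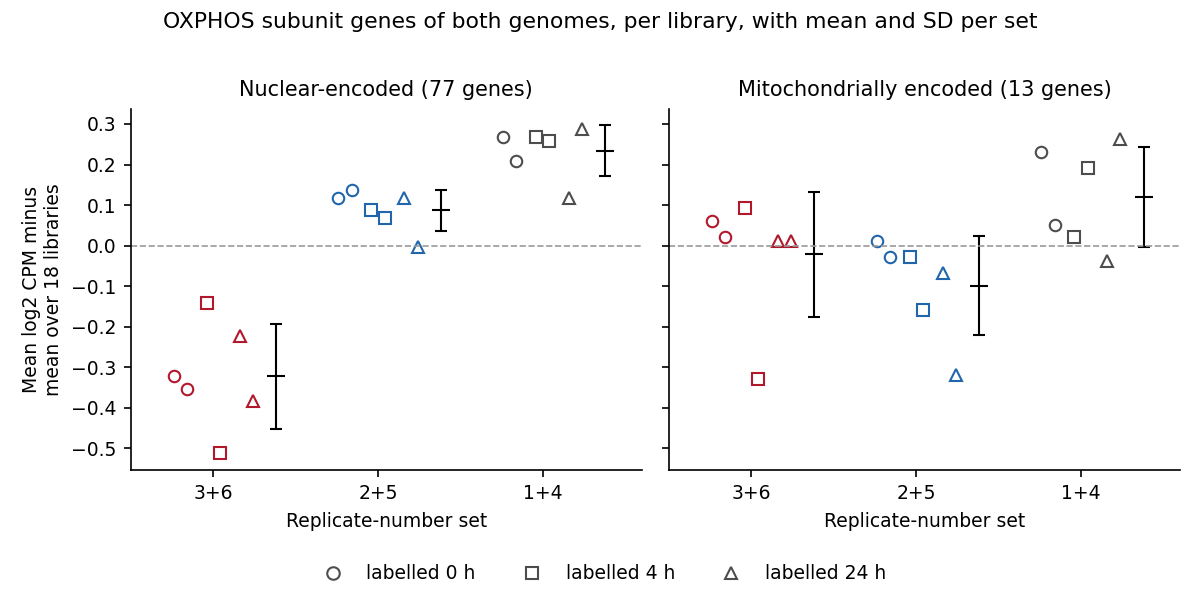
Mean log2 CPM per library, minus the mean over the 18 libraries, of the 77 nuclear-encoded (left) and 13 mitochondrially encoded (right) subunit genes, by number set with mean ± SD. The nuclear-encoded genes of set 3+6 lie below all libraries of the other sets, whereas the mitochondrially encoded genes overlap between all sets.

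Genes that serve the complexes without being subunits were mixed. Their counts are for 3+6 against 1+4, where 30.2% of all genes were called higher and 29.5% lower. Of 51 assembly factors, 9 were higher and 22 lower in 3+6 than in 1+4, with a median of -0.09 that turned to 0.07 with library totals. The lowest was Higd1a, a complex IV factor induced by low oxygen, at 25.6 to 30.3 CPM in 3+6, 45.7 to 58.0 in 2+5 and 79.7 to 103 in 1+4 (log2 fold change -1.71 in 3+6 minus 1+4). Of 77 mitochondrial ribosomal protein genes, 12 were higher and 30 lower, with a median of -0.07 (0.09 with library totals). Of 86 cytosolic ribosomal protein genes, 72 were higher and none lower in 3+6 than in 1+4, with a median of 0.29. These genes have many near-identical copies, so their values are uncertain. Of 15 genes for mobile electron carriers, 2 were higher and 9 lower, with a median of -0.14 (0.03 with library totals). Cycs, cytochrome c, was the lowest of them, with 88.0, 113 and 134 CPM in 3+6, 149, 166 and 175 CPM in 2+5, and 174, 201 and 214 CPM in 1+4 (log2 fold change -0.80 ± 0.08, edgeR adjusted p = 1.8e-07).

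Of 16 regulators of respiratory genes, 6 were higher and 6 lower in 3+6 than in 1+4, with a median of 0.00, beside 30.2% higher and 29.5% lower over all genes. Esrra, an oestrogen-related receptor that binds many of these promoters, had 39.7, 49.7 and 54.0 CPM in 3+6, 45.8, 48.5 and 50.3 CPM in 2+5, and 65.1, 69.3 and 74.2 CPM in 1+4. It was lower in both 3+6 and 2+5 than in 1+4, by log2 fold changes of -0.51 and -0.54, and gave 0.02 in 3+6 minus 2+5. The part of Esrra in the subunit differences was not tested. The coactivators Ppargc1a and Ppargc1b, which drive mitochondrial biogenesis, gave -0.01 and -0.02 in 3+6 minus 1+4, neither called, and both turned to calls of 0.13 and 0.12 with totals without mitochondrial and ribosomal rows. Both were lower in 2+5 than in 1+4, by -0.22 ± 0.04 for Ppargc1a (edgeR adjusted p = 9.7e-06) and -0.53 ± 0.04 for Ppargc1b (4.7e-12), and higher in 3+6 than in 2+5, by 0.21 and 0.50. Nrf1 and Gabpa gave -0.14 and -0.15, which turned to 0.02 and 0.01 with library totals. Yy1 gave 0.01 and was not called. Tfam, which packages mitochondrial DNA and takes part in its transcription, gave 0.11, and 0.27 with library totals.

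Targets of the hypoxia-inducible factors moved with the sets. All 10 listed genes were lower in 3+6 than in 1+4, beside 29.5% of all genes, with a median of -1.74 and no overlap between those sets for any of them, and all 10 were lower in 3+6 than in 2+5 (median -1.38). In 2+5 against 1+4, 8 were lower and none higher (median -0.48). Vegfa, a growth factor for blood vessels, had 236, 257 and 281 CPM in 3+6, 262, 304 and 312 CPM in 2+5, and 460, 503 and 527 CPM in 1+4. Higd1a belongs to this list and to the assembly factors. The list was chosen with earlier results of these data known, so its counts are a description. The part of these genes in the subunit differences was not tested.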

How the data were processed

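Total RNA of 18 BMC libraries was depleted of ribosomal RNA and sequenced as 52-base read pairs from a kit that selects the strand, per the labels' protocols. The authors deposited 1 merged table of expected counts from salmon, with a row for each gene, per the labels. Per the submitters' processing notes, the tools were edgeR and limma and the build mm10, with no versions. For salmon's version, the annotation and the strand setting, nothing is given in the sources used. Of 45706 rows, 45143 were found in GENCODE M21, which gave positions and exon lengths. Of the 77 subunit genes, 21 had values that were not whole (tolerance 0.01), and for 17 this held in most libraries. These include Atp5g1, Atp5g2, Cox5b, Cox7a2l, Cox6c, Uqcrb and Uqcr11, whose reads may be shared with close copies or overlapping genes.

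Expected counts were rounded. Genes were filtered by filterByExpr (minimum count 10, minimum total 15), leaving 14788, and library sizes were adjusted with edgeR's TMM factors (trimmed mean of M values). CPM and RPKM used TMM-scaled totals, and log2 CPM a prior count of 2. Labelled times, and number sets with time in the model, were tested over all 18 libraries by the quasi-likelihood F-test of edgeR (robust, two-sided), adjusted by the Benjamini-Hochberg method over all genes with a threshold of 0.05. Called, lower and higher refer to that threshold, and SE denotes a standard error from that model. Members and gene lists were chosen with earlier results of these data known. Named genes are 28 fixed subunits, the 5 lowest and 5 highest called per comparison of sets, the ends of each complex by RPKM, 7 regulators and the 3 genes left out. Of the fixed subunits, 1 is not reported here. Any other gene was chosen after its values were seen.

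Libraries of the same replicate number resembled each other across labelled times, but little more than libraries with numbers 3 apart. Deviations from time means correlated by 0.297 to 0.718 in all 18 pairs of the same number, above a bound of 0.1, by 0.237 to 0.688 for numbers 3 apart and by -0.446 to 0.018 otherwise. The medians were 0.59 for the same number and 0.569 for numbers 3 apart, so a pairing by single number cannot be told from the sets. The numbers come from the titles, and no label ties a number to a culture or day. On simulated counts with 50 changed genes per size among 14788, the test for 3+6 minus 1+4 recovered 54%, 92%, 90% and 100% of log2 changes of 0.3, 0.5, 1.0 and 2.0, with 12 false calls. The test for 4 h minus 0 h recovered 14%, 20%, 76% and 88%, with 11. For times, the simulated libraries held no number sets, and differences between sets entered only as independent spread. These rates may therefore not hold for the test of times in the real libraries. Alternatives covered scaling, filters, tools (DESeq2, limma-voom), designs and libraries left out. The scaling by totals without mitochondrial and ribosomal rows was added for calls and named genes after the data were seen, as were times within sets. Fits used edgeR 4.0.16, DESeq2 1.42.0 and limma 3.58.1 in R 4.3.3. Tables and figures used pandas 2.3.3, scipy 1.17.1, numpy 2.4.6 and matplotlib 3.10.9 in Python 3.11.15.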

Additional observations from a re-analysis of the deposited data

Results flagged for a closer look

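In 11 of 258 groups of 6 libraries examined, the lowest library stood apart from the others by more than Dixon's 95% critical value of 0.625. Chance flags about 1 in 20 groups. In set 2+5 it was 24 h replicate 5, the library rich in ribosomal RNA, for Cox4i1 (log2 CPM 9.67, others 9.80 to 9.86), Cox8a (9.51, others 9.60 to 9.66) and Ndufs1 (7.33, others 7.60 to 7.71). The same library stood apart for Sdhd (6.75, others 7.06 to 7.16) and Uqcrc2 (6.91, others 7.22 to 7.38). In set 1+4, 24 h replicate 1 stood apart for the mean of complex V (7.10, others 7.23 to 7.28) and for Cox4i1 (9.76, others 9.94 to 10.04). At labelled 4 h, replicate 6 stood apart for Atp5g1 (6.02, others 6.36 to 6.54), Cox7a2l (5.86, others 6.10 to 6.24) and Sdhc (6.27, others 6.55 to 6.61). Within set 3+6, the same 4 h replicate 6 stood apart for Ndufa5 (4.63, others 4.92 to 5.08).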

How the results depend on the processing

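Comparisons of times gave 0 called subunit genes under all 18 alternatives, the replicate block included (0 in each comparison), and the block changed no call of a subunit gene. Lower calls in 3+6 minus 1+4 (73) ranged from 72 to 75 when each replicate number was left out, and in 3+6 minus 2+5 (70) from 65 to 75. In 2+5 minus 1+4, 43 lower ranged from 22 (without number 4; 23 without number 5) to 50, and 4 higher from 2 (without numbers 1, 4 or 5) to 4. Library totals gave 36 and 6 lower in 3+6 minus 1+4 and 3+6 minus 2+5, and 6 lower and 0 higher in 2+5 minus 1+4. Labelled times alone gave 43 lower in 3+6 minus 2+5 at 4 h, 1 higher there at 24 h (Ndufs7), and 11 and 7 lower and 2 and 0 higher in 2+5 minus 1+4 at 4 h and 24 h. In 2+5 minus 1+4, numbers as units gave 2 higher. Totals without mitochondrial and ribosomal rows also gave 2 higher there, and 1 higher (Ndufs7) in 3+6 minus 2+5. With no filter on low counts, the interaction of set and time was called for 2 subunit genes, Ndufa3 and Atp5k, beside 302 of all 26331 genes. The difference in mean log2 CPM with library totals, for 3+6 minus 1+4, 3+6 minus 2+5 and 2+5 minus 1+4, was -0.39, -0.09 and -0.31 for all 77 genes, -0.40, -0.06 and -0.34 for complex I, -0.26, -0.02 and -0.23 for complex II, -0.43, -0.11 and -0.32 for complex III, -0.50, -0.18 and -0.31 for complex IV, and -0.30, -0.07 and -0.23 for complex V. For times under that scaling, complex II gave -0.27 at 24 h minus 0 h and -0.26 at 24 h minus 4 h, and complex V -0.27 at 24 h minus 0 h. The median log2 fold change over all genes was then -0.17 at 24 h minus 0 h and -0.16 at 24 h minus 4 h. The 24 h libraries include replicate 5, the library rich in ribosomal RNA. With totals without mitochondrial and ribosomal rows, 3+6 minus 1+4 and 3+6 minus 2+5 gave -0.41 and -0.24 for all 77 genes, -0.43 and -0.22 for complex I, -0.28 and -0.18 for complex II, -0.45 and -0.26 for complex III, -0.52 and -0.34 for complex IV, and -0.32 and -0.22 for complex V. The log2 of summed CPM gave -0.52 and -0.46 for complex II in the same comparisons, -0.54 for complex V in 3+6 minus 2+5, and 0.01 for complex V in 2+5 minus 1+4, against -0.07 for mean log2 CPM. Signs turned with library totals for Cox7a2l (0.01), Gabpa (0.01) and Nrf1 (0.02) in 3+6 minus 1+4, and for Atp5g1 (0.04), Atp5g2 (0.01), Cox7a2l (0.07), Gabpa (0.06), Ndufc2 (0.03), Sdhc (0.07) and Yy1 (0.15) in 3+6 minus 2+5. Totals without mitochondrial and ribosomal rows turned Ppargc1a (0.13) and Ppargc1b (0.12) in 3+6 minus 1+4 and Yy1 (0.03) in 3+6 minus 2+5. Of the values of named genes under alternatives, 5265 kept direction and call, 254 lost a call, 42 gained one and 13 turned. The causes were not tested. Genes under 10 counts and interactions with 2 libraries per set and time are limited by depth and number.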
